A study of Mus musculus with 6 samples.

Results

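A set of 9 genes that mark the alveolar and airway epithelium of the lung were followed across 3 mouse lung adenocarcinoma cell lines, KPR4, KPR5 and KPR8, each treated with ethanol or with 4-OH tamoxifen. The 9 genes were Nkx2-1, Sftpb, Sftpc, Sftpd, Abca3, Hopx, Aqp5, Scgb1a1 and Muc1. They were found by gene symbol in the platform annotation, which assigned 13 of the 22626 probe sets that are not array controls to them. The annotation named 12393 genes in all. Sftpc and Hopx had 2 probe sets each, Abca3 had 3, and the other 6 genes had 1. None of the 13 was shared with another gene in that annotation.

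The study asked what changes in lung tumour cells when the tumour suppressor p53 is switched back on, and according to the labels tamoxifen does this in these lines. Cells of each line, of the strain background C57/B6-129SvJae, were grown with 10% serum and given 250 nM 4-OH tamoxifen in ethanol, or ethanol alone, 24 h before RNA was taken. The labels do not list alleles. As background on the published study, the lines come from mouse lung tumours, and both treatment groups carry a p53 gene held off by a removable stop cassette together with a Cre recombinase that tamoxifen activates. There was 1 array for each line and treatment, so 3 arrays per treatment, and each line stands for 1 tumour. No array of drug-treated cells without the p53 cassette was analysed here, so effects of the drug and of p53 cannot be told apart.

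The lining of the gas-exchange surface is made of flat type 1 cells and cuboidal type 2 cells, while club, ciliated, basal and goblet cells line the airways. Nkx2-1 is a homeodomain transcription factor that specifies lung epithelium and acts together with FOXA factors on surfactant and secretoglobin genes. Type 2 cells make surfactant, of which Sftpb and Sftpc encode the hydrophobic proteins and Sftpd a collectin of innate defence, and Abca3 encodes the lipid pump of the organelles that store it. Hopx and Aqp5 mark type 1 cells, Scgb1a1 encodes the main secreted protein of club cells, and Muc1 is a membrane mucin found on many epithelia, type 2 cells among them. Loss of Nkx2-1 and of alveolar markers is known from advanced mouse lung adenocarcinoma.

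The promoters of 4 of these genes are shown because their transcripts lay on opposite sides of background: Sftpb was at background in all lines, while Abca3, Aqp5 and Muc1 were measured well above it. Each sequence holds the 250 bases before the RefSeq start on GRCm38.p6, written 5′ to 3′ on the gene's strand. Capitals mark matches on either strand to CNCTNNAG, a loose form of the NKX2-1 site, or to TGTTTNC, a loose form of the FOXA site. Sftpb lies at chr6:72304360-72304609, Abca3 at chr17:24351773-24352022, Aqp5 at chr15:99590778-99591027 and Muc1 at chr3:89228806-89229055, all on the plus strand.
Sftpb: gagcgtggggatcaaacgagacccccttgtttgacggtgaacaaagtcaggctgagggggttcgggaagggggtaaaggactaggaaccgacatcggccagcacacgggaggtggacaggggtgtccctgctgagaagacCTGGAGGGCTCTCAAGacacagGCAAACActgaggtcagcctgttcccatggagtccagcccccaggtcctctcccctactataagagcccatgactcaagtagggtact
Abca3: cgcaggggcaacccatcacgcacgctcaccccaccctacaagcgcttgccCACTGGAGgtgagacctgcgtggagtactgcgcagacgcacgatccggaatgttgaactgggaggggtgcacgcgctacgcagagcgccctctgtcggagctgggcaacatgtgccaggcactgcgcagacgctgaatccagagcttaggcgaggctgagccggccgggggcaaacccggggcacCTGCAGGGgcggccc
Aqp5: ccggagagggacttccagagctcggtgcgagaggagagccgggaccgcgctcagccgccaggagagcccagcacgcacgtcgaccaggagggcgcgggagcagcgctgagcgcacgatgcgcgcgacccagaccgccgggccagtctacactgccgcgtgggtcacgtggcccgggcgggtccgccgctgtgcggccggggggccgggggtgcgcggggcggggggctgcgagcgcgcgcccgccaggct
Muc1: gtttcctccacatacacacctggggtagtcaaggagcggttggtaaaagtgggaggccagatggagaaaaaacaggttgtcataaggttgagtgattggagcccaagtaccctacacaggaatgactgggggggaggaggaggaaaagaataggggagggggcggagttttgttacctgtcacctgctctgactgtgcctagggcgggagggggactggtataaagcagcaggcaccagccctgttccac

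The Sftpb window held 2 NKX2-1 matches side by side, CTGGAGGG from base -110 to -103 and CTCTCAAG from -102 to -95 before the start. A FOXA match, GCAAACA, followed from -88 to -82. Abca3 held 2 NKX2-1 matches and no FOXA match, and neither motif was found in the Aqp5 or Muc1 window. The Aqp5 and Muc1 windows held 2 copies each of the GC box GGGCGG, and Abca3 held 1 copy, overlapping its second NKX2-1 match. Among genes at background, Nkx2-1 also held 1 copy, on the other strand from -182 to -177, and Sftpb and Hopx held 0. These are common letters: of 32841 promoters of the same length, 43.5% held the NKX2-1 motif, 17.8% the FOXA motif, 7.57% both, and 32.7% the GC box. A match describes the sequence and does not show binding. The table matched 6 of the 9 genes, the others being Nkx2-1, with 1 NKX2-1 match in its own window, and Hopx, with 1 such match over its 2 windows. Sftpc, Sftpd and Scgb1a1 had no entry.

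Values are log2 expression made by the authors with GCRMA, and they came without detection calls. A level for genes that are not expressed was therefore taken from the arrays in 2 ways. The highest of 27 Bacillus subtilis control probe sets, which match no mouse gene, lay between 2.47 and 2.84 on the 6 arrays. This bound is low, since 77.1% of all probe sets exceeded it on all 6 arrays and 10.3% on none. The stricter bound was the 90th percentile, on the same array, of 28 probe sets for 19 genes of retina, sperm and muscle, which lay between 3.53 and 3.85. On all 6 arrays, 55.5% of probe sets exceeded this second bound, and 32.9% exceeded it on none.

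Facts common to all arrays bear on the reading of these genes. The median over probe sets lay between 4.56 and 4.63 on each array, and the number of arrays limits the precision. Treatment raised all 8 probe sets of the p53 targets Cdkn1a, Mdm2, Ccng1 and Phlda3, with a median change of 3.73. The lines read as epithelial: all 9 genes of a general epithelial list, among them Epcam, Cdh1 and Krt8, were above the stricter bound on all arrays. The defining leukocyte marker Ptprc was at or under 2.05 and the endothelial marker Cdh5 at or under 2.83 on each array. Of the leukocyte list 1 of 8 genes was above the stricter bound throughout, where 55.5% of all probe sets were. Of the endothelial list 0 of 6 were, and of the fibroblast list 3 of 8. The leukocyte exception was Cd14, an endotoxin co-receptor, which read 9.01 and 9.23 in KPR4, 7.03 and 7.35 in KPR5, and 6.42 and 6.54 in KPR8 (F-test adjusted p = 4.6e-06, limma). The order of lines was that of Muc1 and Abca3, and its part in the line differences was not tested. The fibroblast collagen Col1a1 read 7.45 and 7.73 in KPR4, 5.82 and 5.41 in KPR5, and 7.04 and 6.83 in KPR8 on its brighter probe set, and its part in the line differences was not tested. Treatment raised the macrophage marker Cd68 by 1.02 ± 0.13 (limma adjusted p = 0.00070) and the tight junction gene Cldn4 by 0.89 ± 0.18 (adjusted p = 0.0102).

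Of the 9 genes 6, Nkx2-1, Sftpb, Sftpc, Sftpd, Scgb1a1 and Hopx, read as background in all 3 lines and under both treatments. Their 8 probe sets lay between 2.08 and 3.37 and none exceeded the stricter bound on any array, as 32.9% of all probe sets did not. The remaining 3 genes, Abca3, Aqp5 and Muc1, each had a probe set between 6.89 and 10.11 on the 6 arrays, where 52.1% of all probe sets were at log2 4 or above throughout. No lung tissue was hybridised in this series, so whether each of the 8 dim probe sets can report its transcript was not tested.

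**Figure D1:**
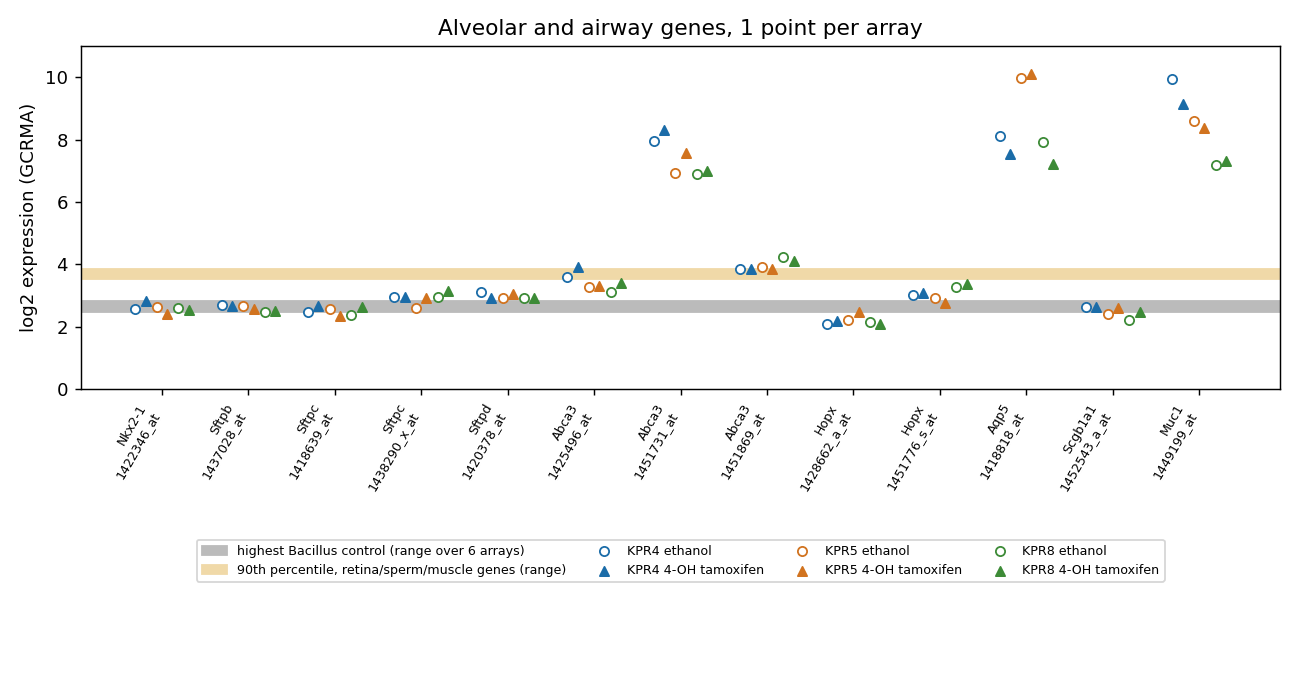
Log2 expression of the 13 probe sets of the 9 genes, 1 point per array, with lines in colours, open circles for ethanol and filled triangles for 4-OH tamoxifen. The grey band is the range over arrays of the highest Bacillus control (2.47 to 2.84) and the tan band that of the stricter bound (3.53 to 3.85). A probe set each of Abca3, Aqp5 and Muc1 stands above log2 6.8 on every array.

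Nkx2-1, the master regulator of lung identity, read 2.56, 2.64 and 2.61 with ethanol in KPR4, KPR5 and KPR8, and 2.83, 2.40 and 2.53 with 4-OH tamoxifen. The treatment groups overlapped, no line stood apart, and only 2 of 6 arrays exceeded even the Bacillus bound. The limma estimate of the change was -0.02 ± 0.12 (SE, 3 lines), with an adjusted p of 0.956. The 95% interval of that change ran from -0.27 to 0.24.

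The surfactant protein genes also stayed under the stricter bound on all arrays. Their place against the Bacillus bound varied: Sftpd and Sftpc on 1438290_x_at exceeded it on 6 of 6 arrays, Sftpb on 3 and Sftpc on 1418639_at on 2. Sftpb read 2.71, 2.67 and 2.46 in vehicle-treated KPR4, KPR5 and KPR8 and 2.66, 2.58 and 2.49 in the treated arrays. Sftpc read 2.48, 2.56 and 2.38 with ethanol and 2.68, 2.36 and 2.62 with the drug on probe set 1418639_at. Its other probe set, 1438290_x_at, whose suffix marks probes that can match other genes, lay between 2.61 and 3.13. Sftpd read 3.11, 2.91 and 2.93 with ethanol and 2.91, 3.04 and 2.92 with the drug. Vehicle and treated arrays overlapped for each of these genes. The limma changes were -0.03 ± 0.10 for Sftpb, 0.08 ± 0.11 and 0.16 ± 0.11 for the probe sets of Sftpc, and -0.03 ± 0.11 for Sftpd, with adjusted p between 0.453 and 0.928.

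Scgb1a1, the club cell marker, read 2.63, 2.40 and 2.21 in vehicle-treated KPR4, KPR5 and KPR8 and 2.64, 2.59 and 2.48 in the treated arrays. The drug array was the higher one in each line, by 0.02, 0.19 and 0.26. Only 2 of 6 arrays exceeded the Bacillus bound of the same array, the drug arrays of KPR4 and KPR5, by 0.01 and 0.12. All 6 values stayed under the Bacillus controls' overall maximum of 2.84. The limma change of 0.16 ± 0.10 did not pass (adjusted p = 0.419). Hopx, a small homeodomain protein of type 1 cells, lay between 2.08 and 2.48 on probe set 1428662_a_at and between 2.75 and 3.37 on 1451776_s_at. On the latter KPR8 was the highest line, at 3.28 and 3.37, and KPR5 the lowest, at 2.91 and 2.75. The F-test between lines narrowly missed the threshold for that probe set (adjusted p = 0.0510). Its KPR5 to KPR8 pair alone had an adjusted p of 0.0430, a pair whose call ended under several settings, with adjusted p = 0.0738 without a variance trend.

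Of the 3 genes above background, Muc1 and Abca3 were highest in KPR4, then KPR5, then KPR8 by line mean, and Aqp5 was highest in KPR5. Of the 13 probe sets 4 differed between lines in limma's F-test, where 24.2% of all probe sets did, and 28.6% of those above the Bacillus bound on all arrays. They were the probe sets of Aqp5 and Muc1 and 2 of the 3 of Abca3. By pairs of lines, 3 of 13 passed for KPR4 against KPR5, where 15.3% of all probe sets did, 3 for KPR4 against KPR8 (17.6%), and 3 for KPR5 against KPR8 (9.73%). Both arrays of a line set its level in this test, so its residual is the spread between lines of the treatment response. That spread has 2 degrees of freedom, and moderation adds 9.89 from other probe sets. The p-values rest on this moderated spread and on no replicate array of a line and treatment.

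Aqp5, the water channel of type 1 cells and of glands, was highest in KPR5. It read 8.12 and 7.53 in KPR4, 9.98 and 10.11 in KPR5, and 7.91 and 7.23 in KPR8, with ethanol and with the drug in that order. Both KPR5 arrays were above all 4 arrays of the other lines, whose values overlapped. The level in KPR5 was 4.64-fold that in KPR4 (log2 difference of KPR4 minus KPR5 -2.21 ± 0.22 SE, limma adjusted p = 4.0e-05) and 5.55-fold that in KPR8 (2.47 ± 0.22, adjusted p = 6.5e-05). KPR4 and KPR8 were not separated: their difference was 0.26 ± 0.22 (adjusted p = 0.491).

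Muc1, the membrane mucin, fell off in steps from KPR4 to KPR5 to KPR8. It read 9.94 and 9.15 in KPR4, 8.58 and 8.38 in KPR5, and 7.20 and 7.32 in KPR8, with ethanol and with the drug. The arrays of the 3 lines did not overlap. KPR4 was 2.09-fold above KPR5 (1.06 ± 0.22, limma adjusted p = 0.0074) and 4.88-fold above KPR8 (2.29 ± 0.22, adjusted p = 2.7e-05), and KPR5 was 2.34-fold above KPR8 (1.22 ± 0.22, adjusted p = 0.0071). With the treatment left out of the model, the pairs that involve KPR5 lost their call (adjusted p = 0.116 against KPR4 and 0.151 against KPR8).

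Abca3, the surfactant lipid transporter, was highest in KPR4 on its brightest probe set, 1451731_at. That probe set read 7.95 and 8.32 in KPR4, 6.94 and 7.57 in KPR5, and 6.89 and 7.0 in KPR8, with ethanol and with the drug. KPR4 did not overlap with either line, while KPR5 and KPR8 did overlap. KPR4 was 1.84-fold above KPR5 (0.88 ± 0.21, limma adjusted p = 0.0131) and 2.28-fold above KPR8 (1.19 ± 0.21, adjusted p = 0.0019), and KPR5 minus KPR8 was 0.31 ± 0.21 (adjusted p = 0.389). With treatment left out of the model neither pair with KPR4 passed (adjusted p = 0.168 and 0.0636), nor did they for the mean of the 3 probe sets (adjusted p = 0.0665 and 0.0537).

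The other probe sets of Abca3 were dim, 1425496_at exceeding the stricter bound on 2 of 6 arrays and 1451869_at on 6. On 1425496_at the values were 3.58 and 3.92 in KPR4, 3.27 and 3.29 in KPR5, and 3.12 and 3.41 in KPR8, again highest in KPR4 (F-test adjusted p = 0.0462). On 1451869_at they were 3.84 and 3.84 in KPR4, 3.92 and 3.84 in KPR5, and 4.22 and 4.10 in KPR8, so that KPR8 was the highest line there, without passing the F-test (adjusted p = 0.245). The pairwise calls on 1425496_at were marginal. KPR4 minus KPR5 did not pass there (limma adjusted p = 0.0540), and KPR4 minus KPR8 (0.0433) lost its call without the treatment term, without a variance trend, with centred arrays and with gene means (adjusted p = 0.163, 0.0617, 0.0692 and 0.0537). The order of lines for Abca3 therefore rests on the brightest probe set.

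**Figure D2:**
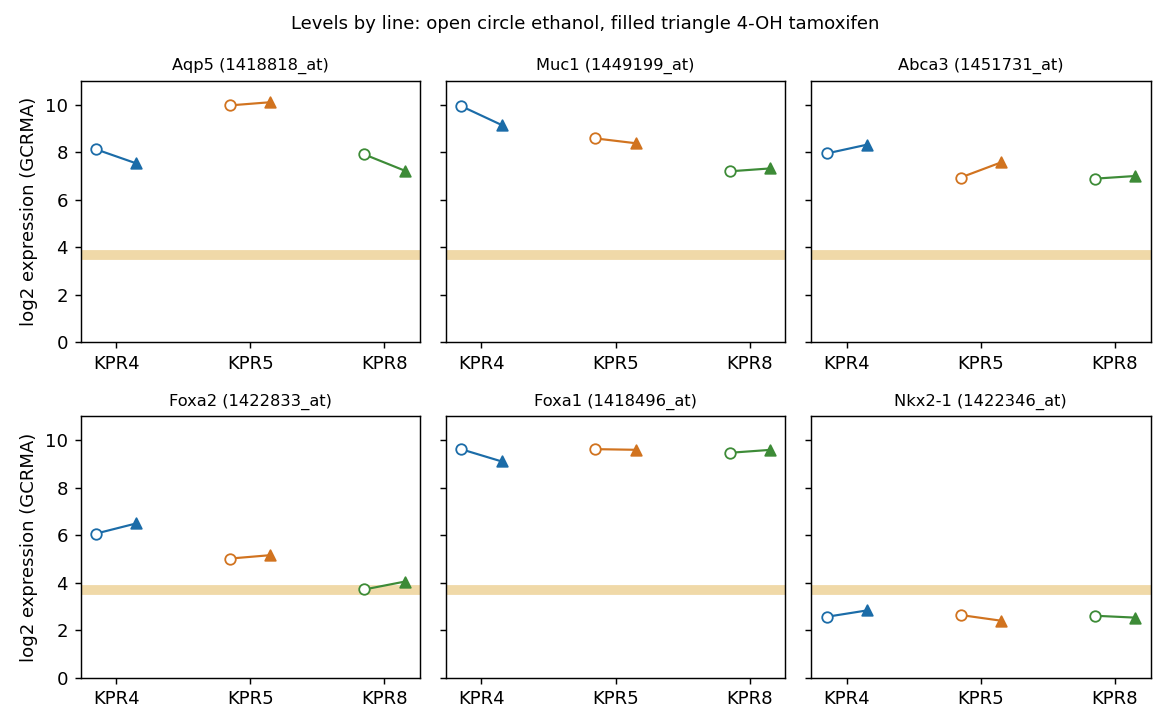
Log2 expression by line for Aqp5, Muc1, Abca3 (brightest probe set), Foxa2, Foxa1 and Nkx2-1, with an open circle for the ethanol array and a filled triangle for the 4-OH tamoxifen array of a line, joined by a segment. The tan band is the range of the stricter background bound (3.53 to 3.85). Aqp5 is highest in KPR5, Muc1, Abca3 and Foxa2 are highest in KPR4, Foxa1 lies between 9.11 and 9.62, and Nkx2-1 lies under the band on all 6 arrays.

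Treatment moved none of the 9 genes past the threshold. Of the 13 probe sets, 0 passed, against 7.92% of all probe sets and 9.86% of those above the Bacillus bound on all arrays. By direction, 0 were called higher, against 4.23% of all 22626, and 0 lower, against 3.69%, in the limma fit with a term for line. At an unadjusted p under 0.05 in limma the count was 1, the brightest probe set of Abca3, against 21.8% of all probe sets. The median change over the 13 was -0.01, and it was -0.02 over all probe sets. The 8 dim probe sets of 6 genes had changes between -0.03 and 0.16, and their 95% intervals lay within -0.27 and 0.41.

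The changes of the 3 expressed genes were larger and uneven between lines. Abca3 was the higher with the drug in each line, by 0.37, 0.64 and 0.11 for KPR4, KPR5 and KPR8 on 1451731_at. Its limma estimate was 0.37 ± 0.17 (unadjusted p = 0.0462, adjusted p = 0.218), with a 95% interval from 0.01 to 0.74. Its second probe set gave 0.22 ± 0.12 and 1451869_at -0.07 ± 0.13.

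Aqp5 was lower with the drug in KPR4 and KPR8, by -0.59 and -0.68, and was 0.13 higher in KPR5, the line with the most of it. The estimate was -0.38 ± 0.18 (adjusted p = 0.246), with a 95% interval from -0.77 to 0.01. With KPR5 left out it was -0.64, with an adjusted p of 0.0747 over all probe sets and of 0.0305 over the 13169 at log2 4 or above on at least 3 arrays, so there the call depends on 1 line and on the filter. The Muc1 values moved by -0.79, -0.20 and 0.12 for KPR4, KPR5 and KPR8, with an estimate of -0.29 ± 0.18 (adjusted p = 0.406, 95% interval from -0.69 to 0.11). Without KPR4, the line with the most Muc1, the estimate was -0.04, and without KPR8 it was -0.50 (adjusted p = 0.145).

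Changes of this size within a line were common. Among the 17436 probe sets above the Bacillus bound on all arrays, 7.99% were lower by log2 0.5 or more with the drug in KPR4 and 9.69% in KPR8, and 10.0% were higher by as much in KPR5, 8.17% in KPR4 and 8.28% in KPR8. With 1 array per line and treatment, a difference of response between lines could not be tested. RNA integrity was read from the gap between 3' and 5' probe sets of Gapdh and of beta-actin. With treatment the Gapdh gap moved by 0.24, 0.29 and -0.40 for KPR4, KPR5 and KPR8, the beta-actin gap by 0.16, 0.39 and -0.07, and their part in the changes was not tested.

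**Figure D3:**
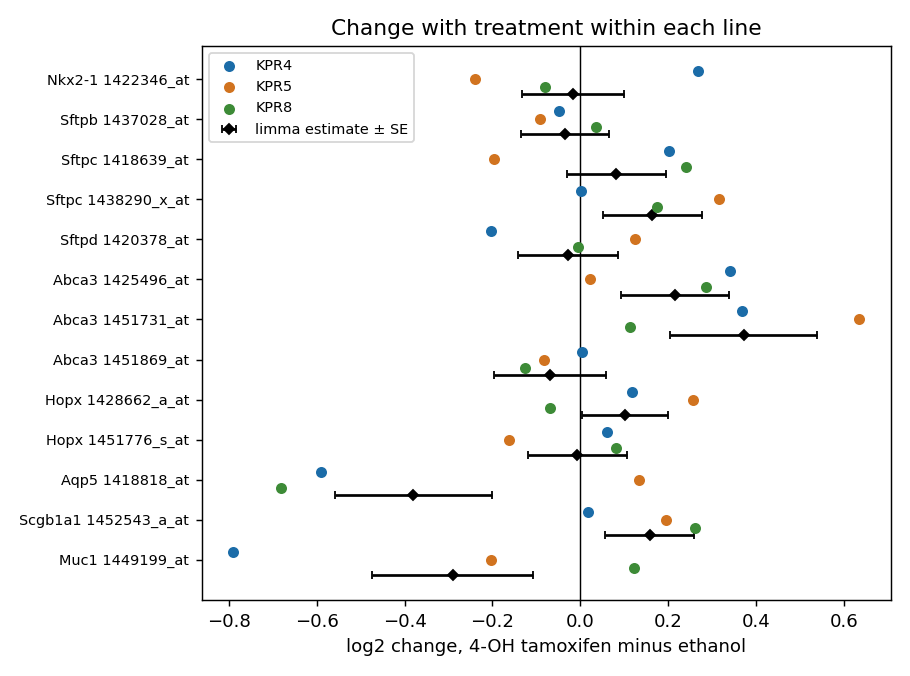
Log2 change, 4-OH tamoxifen minus ethanol, for the 13 probe sets. Coloured points are the 3 lines and the black diamond is the limma estimate with its standard error (n = 3 lines). The points of Aqp5 and Muc1 spread over both sides of 0, from -0.68 to 0.13 and from -0.79 to 0.12, and those of the brightest Abca3 probe set lie between 0.11 and 0.64.

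Other genes of the same cell types were read from fixed lists, leaving the 9 genes out. Of 11 other type 2 genes measured, 2 were above the stricter bound on all arrays (55.5% of all probe sets) and 6 on none (32.9%). The 2 were Lpcat1, the acyltransferase that makes surfactant phosphatidylcholine, and Etv5, a transcription factor of type 2 cells. Lpcat1 lay between 10.89 and 11.97 on its brightest probe set. Its line means there were 11.12 in KPR4, 11.44 in KPR5 and 11.96 in KPR8, the reverse of the order of Muc1 (limma F-test adjusted p = 0.0036). On 1424460_s_at the line means were 4.73, 5.70 and 5.39, with KPR5 highest (F-test adjusted p = 0.0090). Probe set 1424459_at did not pass the F-test (adjusted p = 0.692). The reversed order therefore rests on the brightest probe set. Sftpa1, Napsa, Lyz2, Lyz1 and Chil1 stayed at or under 2.94. Cxcl15 lay between 3.54 and 4.48, above the stricter bound on 5 of 6 arrays, and did not pass the F-test (adjusted p = 0.155). Cebpa, a transcription factor of type 2 cells, read 6.52 and 6.02 in KPR4 but between 3.11 and 3.74 in the other lines, under the stricter bound on each of their arrays. KPR4 was the higher line (limma adjusted p = 1.0e-05 against KPR5), and the size of the difference has only a lower limit. Slc34a2 and Dlk1, both dim, were lowest in KPR4 like Lpcat1 (limma F-test adjusted p = 0.0491 and 0.0089). These 4 genes were the ones of the 11 that differed between lines in the F-test, where 24.2% of all probe sets did. The 11 genes had 17 probe sets, so the count is no result about the list.

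Of 8 other type 1 genes 5 were above the stricter bound on all arrays, where 55.5% of all probe sets were. They were Cav1, Emp2, Krt7, Rtkn2 and Vegfa, none of which is restricted to type 1 cells. Ager, the most specific marker of the list, lay between 3.20 and 3.37, and Pdpn, a membrane mucoprotein of type 1 cells, between 3.33 and 4.03. Pdpn exceeded the stricter bound on 3 of 6 arrays. Unlike Aqp5 it was highest in KPR8 and lowest in KPR5, with line means of 4.02 and 3.39 (limma F-test adjusted p = 0.0297). Rtkn2 was highest in KPR5, like Aqp5, and lowest in KPR4, at 5.70 and 4.96 (adjusted p = 0.0407). These 2 of the 8 genes passed the F-test, where 24.2% of all probe sets did. Of 8 other club cell genes 3 were above the stricter bound, Aldh1a1, Gabrp and Ces1d. Cyp2f2 lay at or under 1.5, Scgb3a2 at or under 2.59 and Scgb3a1 at or under 2.86. Gabrp and Ces1d each passed on 1 probe set, between 4.30 and 4.96 and between 4.01 and 4.48. Their other probe sets exceeded the bound on 0 of 6 arrays. Beside the share of all probe sets, the type 1 and club cell counts are no result about the lists. Aldh1a1, a retinaldehyde dehydrogenase that many epithelia make, was stepped between lines like Muc1, with KPR4 above KPR5 by 1.26 ± 0.15 and KPR5 above KPR8 by 1.12 ± 0.15 (limma adjusted p = 0.00015 and 0.0011). Both steps lost their call with the treatment term left out (adjusted p = 0.170 and 0.280). Aldh1a7, a close paralogue with which it may share probes, read 7.60 and 7.67 in KPR4 against 3.45 and 3.08 in KPR8, which is under the stricter bound and sets only a lower limit to the difference.

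Markers of the other airway cells were read against the 55.5% of all probe sets above the stricter bound on all arrays. Above it throughout were 0 of 5 ciliated, 1 of 6 basal, 1 of 7 goblet and 0 of 5 neuroendocrine cell genes. The exceptions were Trp63, between 4.01 and 4.89 on 1 of its probe sets, and Clca1. Neuroendocrine genes did not share an order of lines. Ddc, a decarboxylase of neuroendocrine cells, read 7.09 and 6.74 in KPR4 and at most 3.43 elsewhere. Uchl1 of the same list was lowest in KPR4, at 4.14 and 3.62, against 5.69 and 5.23 in KPR5 and 5.21 and 5.12 in KPR8. It differed between lines (limma F-test adjusted p = 0.00021). Insm1 was dim and highest in KPR4 (F-test adjusted p = 0.0440), and Chga and Syp did not pass the F-test. Of 13 lung endoderm transcription factors other than Nkx2-1, 10 were above the stricter bound on all arrays with at least 1 probe set. The 13 genes had 30 probe sets, and 55.5% of all probe sets passed that bound. The count is therefore no result about the list. Foxa1, the pioneer factor that works with Nkx2-1, lay between 9.11 and 9.62 with no difference between lines past the threshold (F-test adjusted p = 0.580). Foxa2, its paralogue, read 6.07 and 6.50 in KPR4, 5.02 and 5.16 in KPR5, and 3.71 and 4.04 in KPR8. Foxa2 was thus higher in KPR4 than in KPR5 by 1.19 ± 0.18 and higher in KPR5 than in KPR8 by 1.21 ± 0.18 (limma adjusted p = 0.0010 and 0.0026), the order in which Muc1 also stood. The step from KPR5 to KPR8 lost its call without the treatment term (adjusted p = 0.0887), and 1 of the KPR8 arrays was under the stricter bound. Hmga2, a chromatin protein of embryonic and of poorly differentiated tumour cells, lay between 10.46 and 12.37 over its 3 probe sets.

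**Figure D4:**
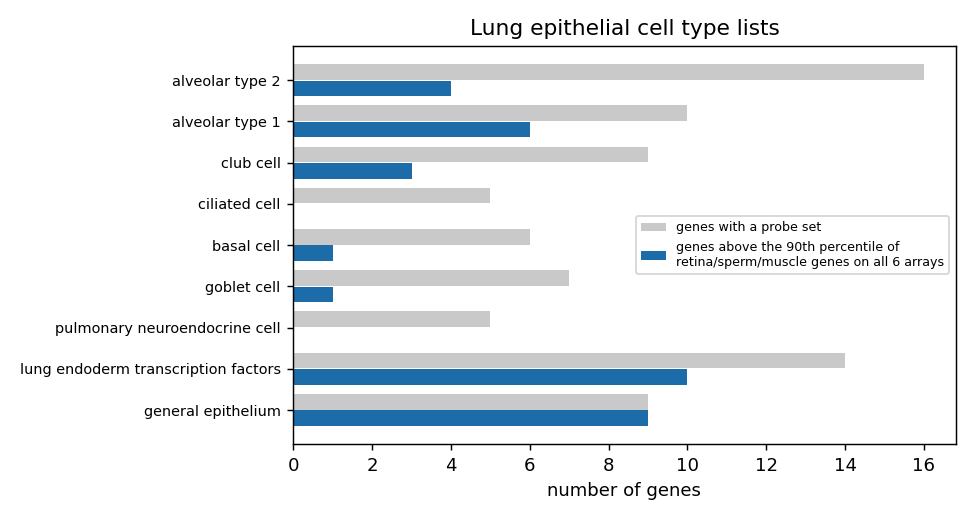
Number of genes with a probe set (grey) and number above the stricter background bound on all 6 arrays (blue) for 9 fixed lists of lung epithelial and general epithelial genes, the 9 genes of interest included in their lists. General epithelium has 9 of 9 genes above the bound, alveolar type 2 has 4 of 16, and the ciliated and neuroendocrine lists have 0 of 5 each. Of all probe sets 55.5% passed that bound.

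Treatment called 7.92% of all probe sets in either direction, the share against which the lists are read. In the type 2, type 1 and club cell lists it called 0 genes higher and 1 lower of 11, 0 and 0 of 8, and 1 and 0 of 8, with median changes of -0.11, 0.05 and 0.00. At these list sizes the counts are no result about the lists. Aldh1a1 rose in each line, by 0.76, 0.95 and 0.87 in KPR4, KPR5 and KPR8 (limma estimate 0.86 ± 0.12, adjusted p = 0.0012). Foxj1, the transcription factor of motile cilia, rose from 2.50, 2.89 and 3.48 to 3.50, 3.74 and 4.41 (0.93 ± 0.12, adjusted p = 0.00057), a change that starts under the stricter bound in each line, crosses it in KPR8 only, and so has only a lower limit to its size. Tekt1 and Dnah5, structural genes of cilia, did not pass (-0.12 ± 0.11 and 0.28 ± 0.12).

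Etv5, Id2 and Foxa3 were called lower, each on 1 probe set. Id2, a helix-loop-helix inhibitor of distal lung progenitors, changed by -0.86 ± 0.20 on 1422537_a_at (adjusted p = 0.0235), but by -0.21 on its brighter probe set (adjusted p = 0.391). Foxa3, an endodermal forkhead factor listed with goblet cells, changed by -0.50 ± 0.12 (adjusted p = 0.0256) and Etv5 by -0.43 ± 0.12 on its dimmer probe set (adjusted p = 0.0443). On its brighter probe set Etv5 changed by -0.25 (limma adjusted p = 0.381). The called probe sets of Foxa3 and Etv5 exceeded the stricter bound on 2 and 1 of 6 arrays, so both changes lie near background. The calls of Etv5 and Foxa3 ended with any 1 line left out (adjusted p from 0.0731 to 0.183 and from 0.0772 to 0.114), while the changes stayed between -0.51 and -0.38 for Etv5 and between -0.52 and -0.48 for Foxa3. The call of Id2 ended without KPR4, where the change was -0.86, and without KPR5, where it was -0.58 (adjusted p = 0.0769 and 0.135).

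The genes most like each expressed member were taken as the 3 with the smallest root mean square difference from its profile over the 6 arrays, after centring each profile, among 9844 other named genes above the Bacillus bound. For Aqp5 they were Plet1, at 0.25, Morn4, at 0.31, and Arap3, at 0.44 on the log2 scale. For Muc1 they were Vcam1, at 0.15, and Mfsd4a and Iqgap2, both at 0.24. For Abca3 they were Btc and Crbn, both at 0.09, and Acp2, at 0.10. The 6 arrays are 3 lines sampled at 2 treatments and are not 6 independent samples. Vcam1, an adhesion molecule for leukocytes, read 9.73 and 8.91 in KPR4, 7.98 and 8.07 in KPR5, and 7.05 and 6.99 in KPR8. Its lower value with the drug in KPR4 was like that of Muc1. Vcam1 was picked for its likeness to Muc1 on these same arrays, so the shared course follows from the choice.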

How the data were processed

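Expression was measured on 6 arrays, 1 per line and treatment, from 100 ng of total RNA each. The authors deposited 1 log2 value for each probe set and array. According to the submitters' processing notes, GCRMA 2.20.0 was run under R 2.11.0. GCRMA models background from probe sequence and equalises the arrays, so a change shared by most genes would not show. The authors' table held 22690 probe sets, of which 64 were array controls. Gene symbols came from GEO's platform annotation, checked by Entrez identifier against GRCm38.p6, which changed 0 symbols. Promoter sequences are from RefSeq on the same build.

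The model was limma 3.58.1 (R 4.3.3) over all 22626 other probe sets without an expression filter, with terms for line and treatment and variances moderated with a trend on level. The 2-sided p-values were adjusted over all probe sets by the Benjamini-Hochberg method, with a threshold of 0.05. The residual degrees of freedom are 2, and moderation adds 9.89. The line term follows the labels, which give a vehicle and a treated array for each line, and the deviations of the vehicle and treated array of a line correlated across probe sets at 0.855, 0.691 and 0.711. Intervals for a change use the moderated error and are not adjusted for multiple tests. The fit was tested on simulated data. The members and lists were chosen with earlier results of these data known. All probe sets of the 9 genes are reported. A gene of a list was eligible to be named where it passed the threshold for treatment, or was above the Bacillus bound on all arrays and differed between lines by log2 2 or more with an F-test adjusted p under 0.05, or is 1 of the first 3 markers of its list. Lpcat1, Hmga2 and the other list genes outside that rule were chosen after their values were seen. Alternatives were another background bound, a filter, array centring, gene means, no trend, no line or no treatment term, and leaving out each line. The restored p53 gene itself is not analysed here.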

Additional observations from a re-analysis of the deposited data

Results flagged for a closer look

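For 5 probe sets above the Bacillus bound on all 6 arrays the change with 4-OH tamoxifen had opposite signs in different lines. The difference between lines was not tested, since each change rests on 1 array per treatment. The gap between the highest and the lowest change was 0.912 for Muc1 (-0.79, -0.20 and 0.12 in KPR4, KPR5 and KPR8) and 0.815 for Aqp5 (-0.59, 0.13 and -0.68). It was 0.328 for Sftpd (-0.20, 0.13 and -0.01), 0.244 for Hopx on 1451776_s_at (0.06, -0.16 and 0.08) and 0.129 for Abca3 on 1451869_at (0.00, -0.08 and -0.13), all 3 at levels close to background.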

How the results depend on the processing

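The count of member probe sets called with treatment stayed at 0 in each direction under each alternative but one: with the filter at log2 4 and KPR5 left out, chosen after seeing the data, 1 was lower (Aqp5), so that leaving out a line gave 0 to 1. Without the replicate block, that is without the line term, 0 were called higher and 0 lower. The count that differed between lines was 4 probe sets, of 3 genes. It went to 2 probe sets without the treatment term and was 2 to 3 with a line left out. With probe sets averaged by gene, where genes are counted, it was 2 genes. Above background on all 6 arrays were 8 probe sets, against 6 with the highest Bacillus control of any array, 4 with the stricter bound and 3 with log2 4. On no array above it were 0, against 5, 8 and 9. Centring the arrays kept both counts of calls.

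Of 452 values recomputed for single probe sets, 15 changed sign, and none of these passed the threshold with either setting. With gene means in place of probe sets they were, for Abca3 on 1451869_at, a treatment change of 0.17 and line differences of 0.44 (KPR4 minus KPR5), 0.45 (KPR4 minus KPR8) and 0.014 (KPR5 minus KPR8), for Hopx on 1428662_a_at line differences of 0.0057, -0.13 and -0.14, for Hopx on 1451776_s_at a treatment change of 0.048, and for Sftpc on 1418639_at -0.0030 (KPR4 minus KPR8). With centred arrays they were -0.027 for Abca3 on 1425496_at (KPR5 minus KPR8) and -0.034 for Hopx on 1428662_a_at (KPR4 minus KPR8). With a line left out, the treatment change ran from -0.16 (without KPR4) to 0.094 (without KPR5) for Nkx2-1, where it was 0.015 without KPR8, from -0.050 (without KPR8) to 0.071 (without KPR5) for Hopx on 1451776_s_at, and from -0.10 (without KPR5) to 0.060 (without KPR4) for Sftpd. The cause was not tested.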
